A study of Homo sapiens with 6 samples.

Results

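The genes described here carry iron into the cell, store it, let it out and sense how much is present. The study used LNCaP cells, a human prostate adenocarcinoma line that responds to androgen. The members were 9 listed genes, and a probe set of the array counted as a member when its single annotated symbol was on that list. Under this rule 7 genes with 25 probe sets were measured, of 18239 genes and 49386 probe sets in all, and FTH1 and IREB2 are not analysed here. One group of 3 arrays held RNA of cells kept for 24 h with 40 µM urolithin A, a metabolite that gut bacteria form from ellagic acid and ellagitannins. The other group of 3 arrays held RNA of cells called untreated in the titles, for which the treatment protocol names saline. Both groups grew in F12 medium with 7% fetal bovine serum, which brings transferrin and its iron, and no solvent is named for urolithin A.

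Cells take up iron mainly as transferrin, which binds the transferrin receptor at the surface and releases its iron inside acid vesicles. Iron that is not used at once is held inside the shell of ferritin, or leaves through ferroportin. A pair of iron regulatory proteins binds hairpins called iron-responsive elements (IREs) in messenger RNAs. In iron-poor cells this binding protects the transferrin receptor RNA from decay and keeps ferritin RNA from being translated, so ferritin is governed largely after its RNA has been made. Prostate tumour cells are known for changes in the balance of iron uptake and export. The arrays measure RNA, and ferritin and receptor protein were not measured.

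Each value is a log2 expression value from which the median of the 3 untreated arrays had been subtracted for that probe set. Differences between arrays can be read from such values and the level of a gene cannot, so no gene is ranked here by abundance. For the same reason markers could not show which cells were present. Of 6 measured markers of prostate luminal cells, KLK2 and KLK3 were lower after urolithin A and 4 did not pass, and of 11 measured markers of other cell types only VIM passed, at a log2 change of 0.57. In bulk RNA, fewer cells of a type and less RNA per cell cannot be told apart. The number of arrays limits the precision, and the labels do not say whether separate cultures were used within a group, so the p-values reflect spread among arrays that may be technical replicates. The 18S ribosomal RNA control probe sets averaged 0.03, -0.22 and -0.48 on urolithin A replicates 1, 2 and 3, against 0.05, 0.01 and -0.45 on untreated replicates 1, 2 and 3, so replicate 3 was the lowest of each group. HLA-DRA stood at -0.02, 1.17 and 3.09 on the urolithin A arrays and at 1.01, 0.03 and -0.02 on the untreated arrays. HBB, 1 of the 11 markers of other cell types, stood at -0.07, 0.08 and 2.32 on the urolithin A arrays. Its untreated arrays were at 0.04, 0.16 and -0.09, and it did not pass. Both genes were highest on urolithin A replicate 3, and their part in the results was not tested.

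Among the members, TFRC fell and no other gene passed the test. The test was limma's moderated test on gene means, adjusted by the Benjamini-Hochberg method over all 18239 genes, with a threshold of 0.05. It called 1 of 7 members, and 10.2% of all genes passed it, with 5.31% of all genes lower and 4.85% higher. FTL was higher on every urolithin A array without passing, and SLC11A2, NCOA4, SLC40A1 and FBXL5 had changes close to 0. The median log2 change was 0.06 over the 7 members and 0.01 over all genes. The arrays of the groups did not overlap for 3 members, TFRC, FTL and ACO1, and the same held for 29.3% of all genes.

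**Figure D1:**
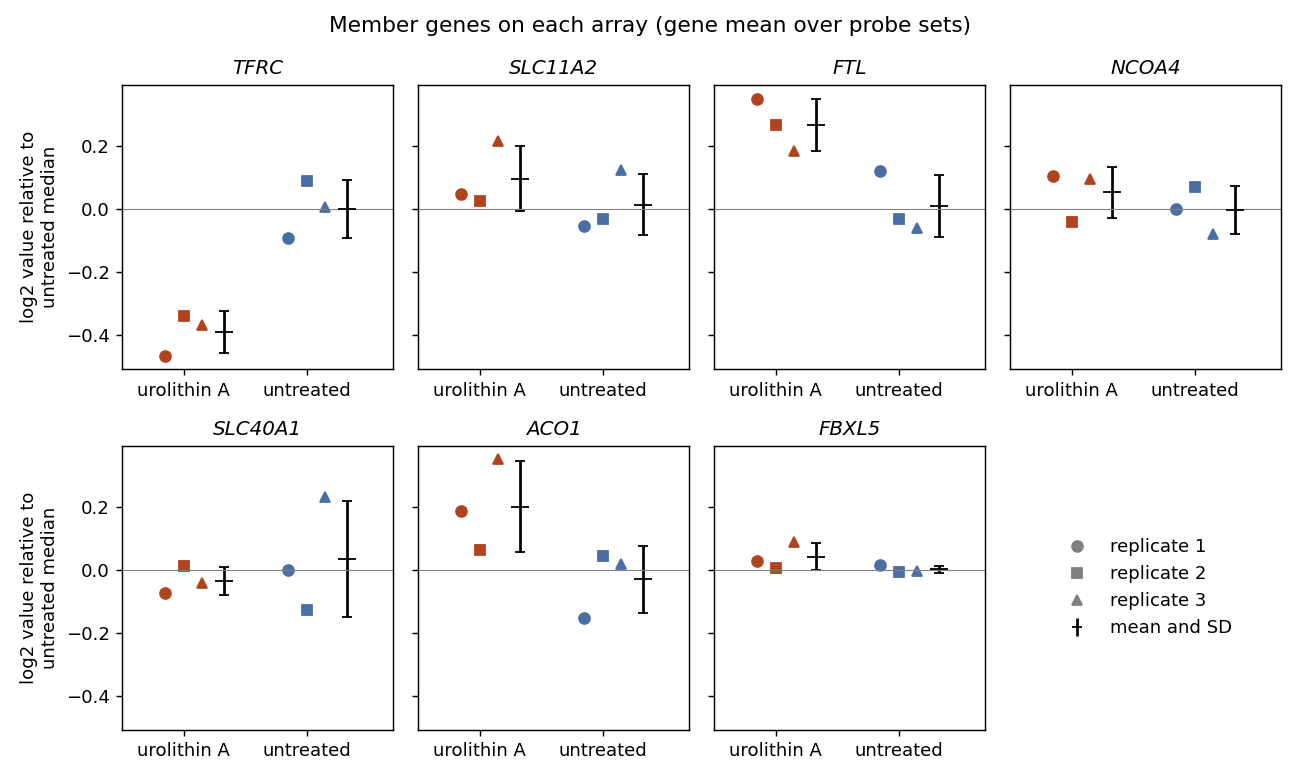
Log2 value relative to the untreated median (vertical axis) of the 7 measured members on each array, as the mean of a gene's probe sets, with urolithin A arrays left and untreated arrays right in each panel. Symbols mark the replicate numbers and bars the mean and SD of 3 arrays. The urolithin A arrays of TFRC lie at or below -0.34 and its untreated arrays at or above -0.09.

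TFRC codes for the transferrin receptor, the main entry for iron. The mean of its probe sets was -0.47, -0.34 and -0.37 on urolithin A replicates 1, 2 and 3, against -0.09, 0.09 and 0.01 on untreated replicates 1, 2 and 3. Every urolithin A array lay below every untreated array, and the gap between the groups was wider than the range within either. The means were -0.39 ± 0.07 with urolithin A and 0.00 ± 0.09 without it (SD, n = 3 each). TFRC thus fell 1.31-fold (log2 change -0.39, SE 0.07, 95% confidence interval -0.56 to -0.22, limma adjusted p = 0.0132). A larger change in either direction was seen in 7.15% of all genes. When single arrays were left out, the call was lost only without untreated replicate 2, the array with the highest TFRC value. The log2 change was then -0.35 (limma adjusted p = 0.0509). Without urolithin A replicate 1 it was also -0.35 (adjusted p = 0.0477), and the call was kept. The call also ended without both replicates 3 (adjusted p = 0.0776) and without untreated replicate 1 and urolithin A replicate 3 (adjusted p = 0.0513), at log2 changes of -0.40 and -0.45.

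All 3 probe sets of TFRC were lower, with no overlap between the groups in any of them. The deepest change was in 11715478_a_at, at -0.52 (SE 0.11, limma adjusted p = 0.0257 over all probe sets). Probe set 11715477_at had a log2 change of -0.36 (adjusted p = 0.0517) and 11756156_s_at one of -0.30 (adjusted p = 0.0673), and neither passed. Tested one by one, 1 of the 25 member probe sets passed, against 8.37% of all probe sets, and 14 of the 25 did not overlap between the groups, against 27.9% of all probe sets. Of those 14, 8 are annotated to FTL and are not separate findings. The probe sets of a gene are read from the same RNA samples and are not replicates.

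The promoter of TFRC is shown because TFRC is the member that fell. The RefSeq promoter table holds 8 of the 9 listed members, and the 250 bases before the start of TFRC lie on the minus strand of GRCh38.p14 at chr3:196082091-196082340. They contain 1 match to ACGTG, the core letters bound by hypoxia-inducible factors and by other factors of related type, which is in capitals below and begins at position -88 counted from the start. Both strands were searched, and neighbouring matches on opposite strands may overlap.

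TFRC promoter: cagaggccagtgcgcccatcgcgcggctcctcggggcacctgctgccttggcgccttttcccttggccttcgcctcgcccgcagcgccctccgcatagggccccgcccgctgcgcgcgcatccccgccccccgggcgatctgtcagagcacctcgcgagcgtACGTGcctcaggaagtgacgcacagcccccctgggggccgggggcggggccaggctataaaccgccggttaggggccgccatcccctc

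ACGTG occurred in 18.5% of 35116 promoter windows of this length. Among the members with a promoter entry it was also present once for FTL and as overlapping matches for FBXL5. TGACNNNGC, the core of the antioxidant response element bound by NRF2, occurred in 10.9% of windows and, among the members, in that of FBXL5. These matches are letters in a window, sites outside it were not searched, and no binding was measured. The IREs of TFRC lie in its untranslated tail, outside this window.

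The other importer, SLC11A2 (DMT1), carries ferrous iron across the membrane of the vesicles in which transferrin gives up its load. The gene mean was 0.05, 0.03 and 0.22 on urolithin A replicates 1, 2 and 3, against -0.05, -0.03 and 0.13 on the untreated arrays. The groups overlapped, and replicate 3 was the highest array in each. The log2 change was 0.08 (95% confidence interval -0.10 to 0.27, limma adjusted p = 0.608). The change was 0.024 without urolithin A replicate 3 and 0.14 without untreated replicate 3.

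The 6 probe sets of SLC11A2 did not move alike, with log2 changes from -0.13 to 0.57, and limma called 0 of them (1 at an unadjusted p under 0.05, a cut that 22.6% of all probe sets passed). The only probe set without overlap was 11764275_s_at, at 0.56, 0.44 and 1.11 on urolithin A replicates 1, 2 and 3, against -0.03, 0.00 and 0.41 on the untreated arrays. Replicate 3 of each group, the array with low 18S signal, again had the highest value, and the part of RNA quality in this was not tested. The change of this probe set was 0.57 (SE 0.19, limma adjusted p = 0.103 over all probe sets), and the other 5 lay between -0.13 and 0.12. With probe sets whose names mark shared sequence left out, among them 11764275_s_at, the gene's log2 change was -0.02. SLC11A2 is known to make transcripts with and without an IRE in the tail, and which of them each probe set detects was not examined.

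**Figure D2:**
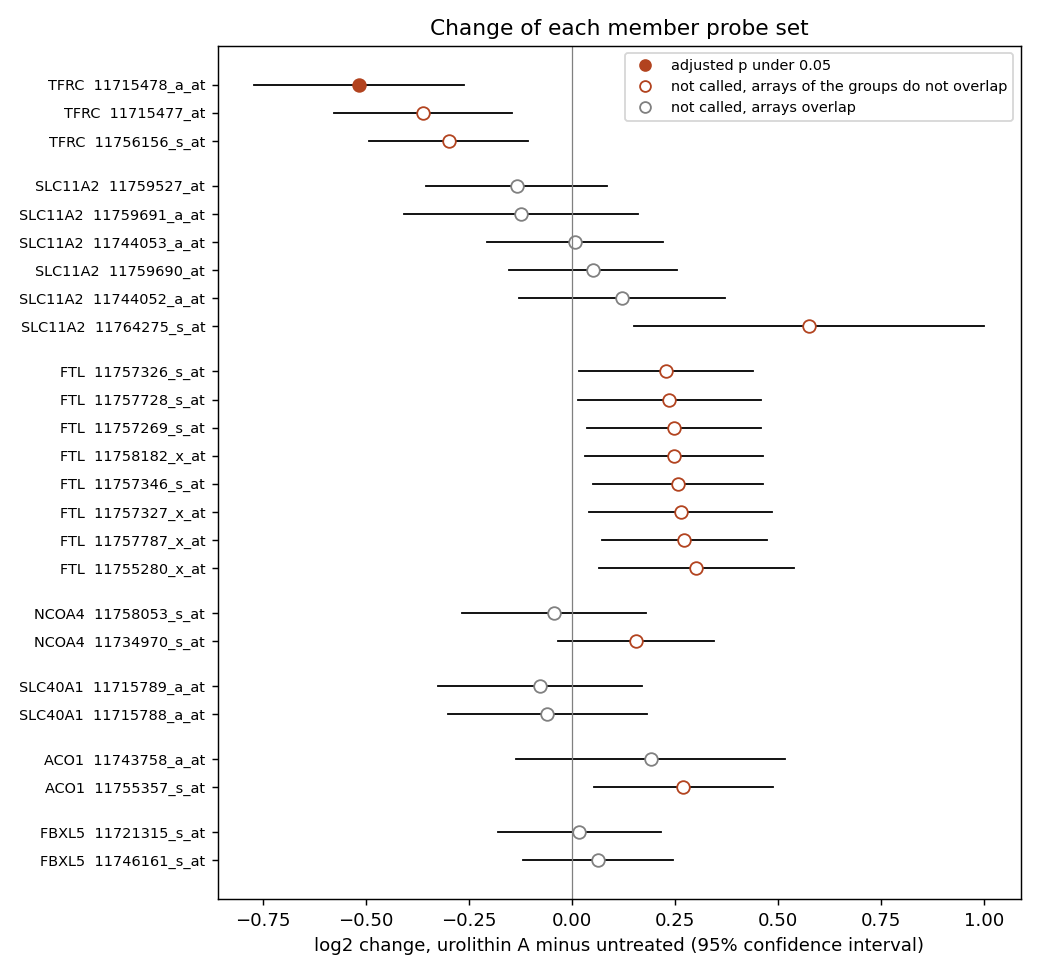
Log2 change of urolithin A minus untreated (horizontal axis) of the 25 member probe sets with its 95% confidence interval, grouped by gene. A filled point passed at adjusted p under 0.05 over all probe sets, and a red outline marks groups that do not overlap. The 3 TFRC probe sets lie left of 0 and the 8 FTL probe sets right of it, between 0.23 and 0.30, while those of SLC11A2 and NCOA4 lie on both sides.

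FTL codes for the ferritin light chain, the subunit that helps iron settle as mineral inside the shell. Its gene mean was 0.35, 0.27 and 0.18 on urolithin A replicates 1, 2 and 3, against 0.12, -0.03 and -0.06 on the untreated arrays. The lowest urolithin A array lay just above the highest untreated array. FTL averaged 0.27 ± 0.08 with urolithin A and 0.01 ± 0.10 without it (SD, n = 3 each). Its log2 change of 0.26, or 1.19-fold, did not pass (SE 0.08, 95% confidence interval 0.08 to 0.43, limma adjusted p = 0.0768). The adjusted p ranged from 0.0567 to 0.200 over 15 other settings, and FTL passed in none of them. In data simulated on all 18239 genes with the variances of these arrays, the same test recovered 32.8% of genes changed 1.25-fold. In those data 18039 genes were left unchanged, whereas 1854 of 18239 genes passed on the real arrays. The adjustment depends on how many genes change, so this share does not carry over to FTL. How often a change of the size seen in FTL would be missed was not tested. Missing the threshold does not show that FTL was unaffected.

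All 8 FTL probe sets were higher without overlap, with changes from 0.23 to 0.30 and adjusted p from 0.0997 to 0.190. Every one of them carries a name ending that marks sequence shared with other transcripts, 4 as _s_at and 4 as _x_at, and the reference table lists 20 FTL pseudogenes, so part of the signal may come from other copies. The FTL transcript opens with an IRE, which is shown because it is the site through which iron controls ferritin translation. Within the first 50 transcribed bases the letters CNNNNNCAGTGN, the bulged C and the loop of an IRE, were searched on the transcribed strand only and were found in 1.67% of the 35116 windows. Among the members with an entry FTL alone had a match in this window, and ALAS2, of the other iron genes, had one too. An IRE further along a leader would be missed, so the lack of a match does not show that a leader has none. The window ends before the whole hairpin is read. The bases below are those of GRCh38.p14 at chr19:48965335-48965358, plus strand, from RefSeq, with the loop letters CAGTG in capitals.

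FTL leader: ctcttgcttcaaCAGTGtttggac

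TFRC and FTL were also set against each other on the same array, a comparison chosen after their values had been seen. The difference of TFRC minus FTL was -0.82, -0.61 and -0.55 on urolithin A replicates 1, 2 and 3, against -0.21, 0.12 and 0.07 on the untreated arrays. All urolithin A arrays lay below all untreated arrays. The mean difference was -0.66 ± 0.14 with urolithin A and -0.01 ± 0.18 without it (SD, n = 3 each), a shift of -0.65. Both genes had been seen to separate the groups in opposite directions, so this separation was fixed by their choice, no test is given, and it adds no evidence to their separate tests.

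NCOA4 is the receptor that hands ferritin to autophagosomes, so that its iron can be recovered in lysosomes. Its gene mean was 0.10, -0.04 and 0.10 on urolithin A replicates 1, 2 and 3, against 0.00, 0.07 and -0.08 on the untreated arrays, with overlap. The log2 change was 0.06 (95% confidence interval -0.11 to 0.22, limma adjusted p = 0.715). Its 2 probe sets pointed apart. Probe set 11734970_s_at had a log2 change of 0.16 and no overlap (limma adjusted p = 0.319), whereas 11758053_s_at had one of -0.04 with overlap.

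SLC40A1 codes for ferroportin, the only known exporter of iron ions from mammalian cells. Over its probe sets the mean was -0.07, 0.01 and -0.04 on urolithin A replicates 1, 2 and 3, against 0.00, -0.13 and 0.23 on the untreated arrays. The urolithin A arrays lay within the range of the untreated arrays, which spread more widely than the other group. The log2 change was -0.07 (95% confidence interval -0.29 to 0.15, limma adjusted p = 0.733), with -0.08 and -0.06 for the 2 probe sets. Untreated replicate 3 decided the sign, since the log2 change was 0.03 without it.

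ACO1 codes for a protein that is the cytosolic aconitase while it holds an iron-sulfur cluster and iron regulatory protein 1 when it has lost it. Its gene mean was 0.19, 0.06 and 0.35 on urolithin A replicates 1, 2 and 3, against -0.15, 0.04 and 0.02 on the untreated arrays. The groups did not overlap, although urolithin A replicate 2 lay close to untreated replicate 2. With a log2 change of 0.23, ACO1 missed the threshold (SE 0.09, 95% confidence interval 0.02 to 0.44, limma adjusted p = 0.167). Probe set 11755357_s_at had a log2 change of 0.27 without overlap and 11743758_a_at one of 0.19 with overlap. In 11743758_a_at urolithin A replicate 3 stood at 0.45, and replicates 1 and 2 at -0.01 and 0.00.

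FBXL5 codes for an iron-binding subunit of a ubiquitin ligase that marks the iron regulatory proteins for breakdown when iron is plentiful. Its gene mean was 0.03, 0.01 and 0.09 on urolithin A replicates 1, 2 and 3, against 0.02, -0.01 and 0.00 on the untreated arrays. These values overlapped and spread little. The log2 change was 0.04 (95% confidence interval -0.10 to 0.18, limma adjusted p = 0.758), and the 2 probe sets had 0.02 and 0.06. For SLC11A2, NCOA4, SLC40A1 and FBXL5 the intervals bound the change of the gene mean between -0.29 and 0.27 on the log2 scale. Single probe sets can lie outside these bounds, as 11764275_s_at of SLC11A2 did at 0.57. The intervals do not show that these genes were unaffected.

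The rest of the pathway was read from lists of 93 other iron and heme genes, of which 84 were measured. Of these, 3 rose, 4 fell and 77 did not pass, so 8.33% passed, against 10.2% of all genes. The median log2 change was 0.01 over the lists and 0.01 over all genes. The groups did not overlap for 22 of the 84, or 26.2%, against 29.3% of all genes. The shares of the iron lists were thus near those of all genes.

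**Figure D3:**
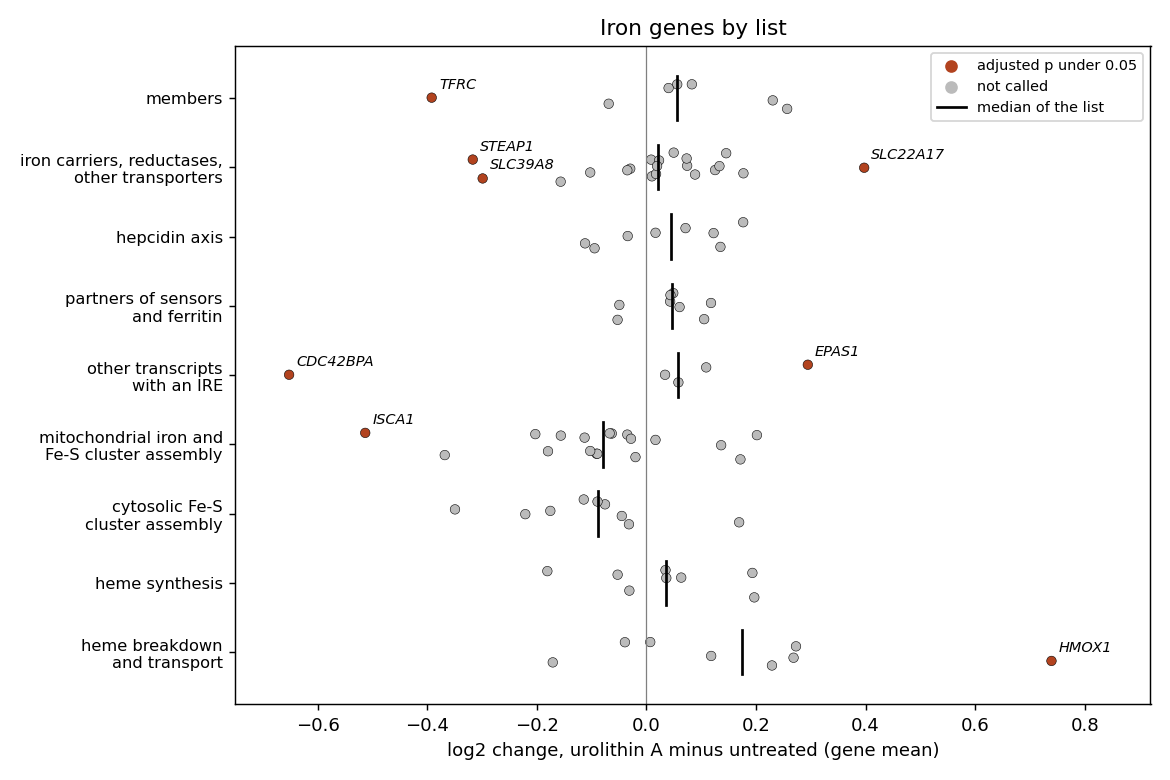
Log2 change of urolithin A minus untreated (horizontal axis) of each measured iron gene by list, with called genes in red and the median of each list as a black line. The called genes are TFRC among the members and 7 genes in 4 of the other lists, and the list medians lie between -0.09 and 0.17.

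Of 20 iron carriers, reductases and other transporters, 1 rose and 2 fell, while 17 missed the threshold, and the median was 0.02. STEAP1, a membrane protein abundant in prostate tumours and related to the STEAP metalloreductases, fell 1.25-fold (log2 change -0.32, SE 0.07, limma adjusted p = 0.0296), and of its 2 probe sets, at -0.49 and -0.14, 1 passed alone. SLC39A8 (ZIP8), a carrier of zinc, manganese and iron, fell 1.23-fold (log2 change -0.30, limma adjusted p = 0.034). Its 6 probe sets ran from -0.55 to 0.01, and 1 passed alone. SLC22A17, a receptor for lipocalin 2, which binds iron siderophores, rose 1.32-fold (log2 change 0.40, limma adjusted p = 0.0248), and 1 of its 2 probe sets, at 0.59 and 0.20, passed alone. These calls were not stable, as each was kept in 1 of the 6 fits that leave out an array. STEAP1 stayed called only without untreated replicate 1, SLC39A8 only without untreated replicate 3 and SLC22A17 only without urolithin A replicate 3, and adjusted p reached in the other fits 0.0998, 0.111 and 0.0809. STEAP2, a reductase that turns ferric into ferrous iron, had a log2 change of 0.13 (adjusted p = 0.302), and CYBRD1, another ferric reductase, one of -0.03.

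Of 5 measured other transcripts with a described IRE, 1 rose and 1 fell, while 3 missed the threshold, and the median was 0.06. CDC42BPA, a kinase of the cytoskeleton whose transcript carries an IRE in its tail like that of TFRC, was at -0.60, -0.67 and -0.71 on urolithin A replicates 1, 2 and 3, against 0.00, 0.02 and -0.05 on the untreated arrays. The groups were far apart and each was narrow. CDC42BPA fell 1.57-fold (log2 change -0.65, SE 0.06, limma adjusted p = 0.000845), and its call held in all 16 other settings. Its 6 probe sets ran from -1.25 to -0.04, and 5 of them passed alone, all lower. CDC14A, a phosphatase gene with a tail IRE in some of its transcripts, had a log2 change of 0.03 (limma adjusted p = 0.81). EPAS1, the hypoxia-inducible factor HIF-2 alpha, whose leader holds an IRE, rose 1.23-fold (log2 change 0.29, limma adjusted p = 0.0318), while 1 of its 2 probe sets, at 0.49 and 0.10, passed alone. The call of EPAS1 was kept only without untreated replicate 3 when single arrays were left out, and its adjusted p reached 0.104 in the remaining fits.

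Heme holds much of the iron in many cells, and its breakdown gives that iron back. HMOX1, the inducible heme oxygenase that opens the heme ring, was at 0.46, 0.78 and 0.79 on urolithin A replicates 1, 2 and 3, against 0.07, 0.00 and -0.25 on the untreated arrays. The lowest urolithin A array lay well above the highest untreated array. HMOX1 rose 1.67-fold (log2 change 0.74, SE 0.12, limma adjusted p = 0.00616), and all 3 probe sets passed. It was the only one of 8 measured genes of heme breakdown and transport to pass, and the median of that list was 0.17. Of these 8 genes, 5 had a limma unadjusted p under 0.05, against 24.1% of all genes. BLVRA, a biliverdin reductase that acts after HMOX1, had a log2 change of 0.23 (adjusted p = 0.123), and the constitutive oxygenase HMOX2 one of 0.01. Limma called 0 of 8 measured genes of heme synthesis (3 at an unadjusted p under 0.05, a cut that 24.1% of all genes passed), and their median was 0.04. ALAS1, the enzyme that sets the pace of heme synthesis, had a log2 change of 0.20 without overlap (limma adjusted p = 0.0959).

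Of 18 measured genes of mitochondrial iron import and iron-sulfur cluster assembly, 1 fell and 17 missed the threshold, and the median was -0.08. ISCA1, which acts late in building [4Fe-4S] clusters, was at -0.67, -0.50 and -0.50 on urolithin A replicates 1, 2 and 3, against 0.00, 0.01 and -0.15 on the untreated arrays. Its groups did not overlap. It fell 1.43-fold in its single probe set (log2 change -0.51, SE 0.08, limma adjusted p = 0.00545). The name of this probe set marks sequence shared with other transcripts, so part of the signal may come from those. SLC25A37 (mitoferrin 1), an importer of iron into mitochondria, missed the threshold at a log2 change of -0.37 (adjusted p = 0.061). Limma called 0 of 9 measured genes of cytosolic cluster assembly (4 at an unadjusted p under 0.05, against 24.1% of all genes), with a median of -0.09. It also called 0 of 8 genes of the hepcidin axis and 0 of 8 partners of FBXL5, NCOA4 and ferritin, with 0 at an unadjusted p under 0.05 in either list, against the same 24.1%, and medians of 0.04 and 0.05.

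**Figure D4:**
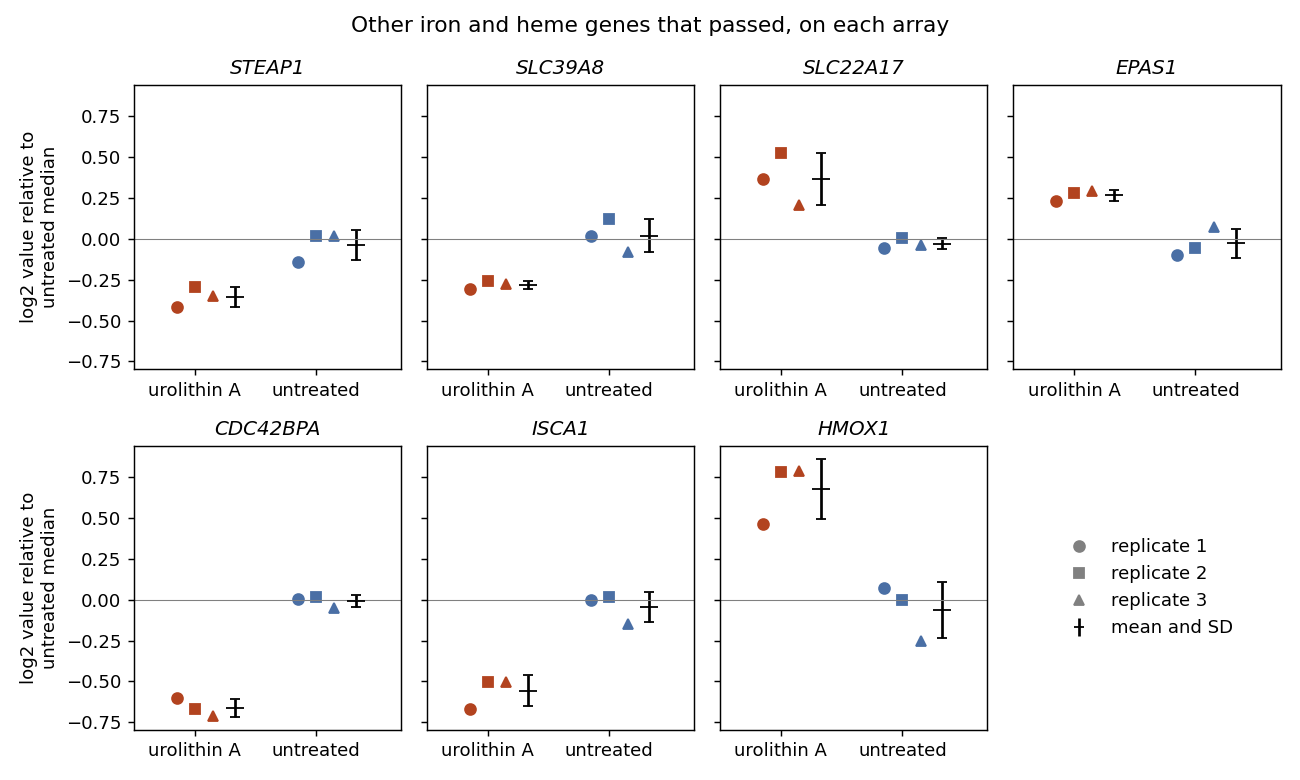
Log2 value relative to the untreated median (vertical axis) of the 7 genes of the other iron lists that passed, on each array, with urolithin A arrays left and untreated arrays right in each panel. Symbols mark the replicate numbers and bars the mean and SD of 3 arrays. In all 7 panels the groups do not overlap, with the widest gap in CDC42BPA.

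The genes whose values were most like those of TFRC over the 6 arrays were OXCT1, AARSD1 and NRARP. The measure was the root mean square difference between gene means over the arrays, which was 0.03 for OXCT1, 0.03 for AARSD1 and 0.04 for NRARP. OXCT1, an enzyme of ketone body use, had a log2 change of -0.40 (SE 0.08), AARSD1, an alanyl-tRNA editing protein, one of -0.36, and NRARP, a regulator of Notch signalling, one of -0.37. A likeness over 6 arrays of 2 groups is mostly a likeness in the size of the change.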

How the data were processed

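Log2 values of 49386 probe sets were deposited for 6 Affymetrix Human Genome U219 arrays. The authors made them with RMA, per the submitters' processing notes, with no version given. In all 49386 probe sets the untreated median was exactly 0, so the authors' values are centred on it. No source names the logarithm's base, and 2, the base RMA uses, was assumed. Symbols came from the platform's annotation, and 45253 probe sets had a single symbol. A gene's value was the mean of its probe sets. Genes (18239) and probe sets were fitted by lmFit and eBayes (limma 3.58.1, R 4.3.3) with treatment as the only term, with Benjamini-Hochberg adjustment over the whole table and a threshold of 0.05. The fit was tested on simulated data.

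Groups and replicate numbers came from the titles. The members and lists were chosen with earlier results of these data known. The text names all members, each other iron gene that passed, and the 3 genes nearest to each called member; STEAP2, CYBRD1, CDC14A, BLVRA, HMOX2, ALAS1 and SLC25A37 were added after their values were seen. Comparisons planned with FTH1 were not made, and TFRC minus FTL was added. No genome build was given in the sources used here, so coordinates stand only with RefSeq sequences. No batch was given in the sources used here, and no arrays held identical values.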

Additional observations from a re-analysis of the deposited data

How the results depend on the processing

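The direction of TFRC, FTL, ACO1 and FBXL5 was the same in every alternative run, and that of TFRC minus FTL too, between -0.81 and -0.57. TFRC was the called member in 11 of 16 alternatives. The count of called members was 0 without moderation (adjusted p = 0.0702 for TFRC), at a threshold of 0.01, without both replicates 3, and without untreated replicate 1 and urolithin A replicate 3, and it ranged from 0 to 1 without a single array. Called member probe sets numbered 2 with the array medians subtracted, 0 without moderation, at 0.01 and without both replicates 3, and 0 to 1 without a single array. Of the other iron genes, 0 were higher without moderation, 1 at 0.01 and 1 to 2 without a single array, against 3. Lower were 8 with the median of probe sets, 2 with a trended and robust prior, 1 without moderation, 2 at 0.01, 2 without both replicates 3, 2 without untreated replicate 1 and urolithin A replicate 3, and 2 to 3 without a single array, against 4. ISCA1 and HMOX1 lost their calls only without moderation (adjusted p = 0.0592 and 0.093). Changes near 0 took the other sign for SLC11A2 with the median of probe sets (-0.036), without shared-sequence probe sets (-0.015) and without untreated replicate 1 and urolithin A replicate 3 (-0.0097), for NCOA4 without both replicates 3 (-0.0041), and for SLC40A1 without both replicates 3 (0.034); without a single array SLC40A1 ranged from -0.15 to 0.030. The cause of these shifts was not tested, and the fits that leave out arrays also rest on fewer of them. FTL, NCOA4, FBXL5 and ISCA1 have no value without shared-sequence probe sets.

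With the replicate number as a block, 1 member, 2 member probe sets and 3 higher and 6 lower other iron genes passed. Arrays of the same number correlated at 0.08, 0.02 and 0.20 in their deviations from the group means. Urolithin A replicates 1 and 3 correlated best with the untreated array of their own number, and urolithin A replicate 2 with untreated replicate 1. These values do not establish a pairing of all numbers. The planned comparisons with FTH1 were not run.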
